A study of Homo sapiens with 6 samples.

Results

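Complement is the arm of innate immunity that works through plasma proteins, most of them made by hepatocytes. The genes described here are 37 complement components and regulators, taken by symbol from the 58037 gene rows of the deposited table: 5 of the classical pathway, 6 of the lectin pathway, 4 of the alternative pathway, 7 of the terminal pathway, 10 fluid-phase regulators, 3 membrane regulators and 2 receptors of the cleaved fragments. All 37 symbols were found. They were measured in HepaRG, a human line from a hepatocellular carcinoma whose cells differentiate into hepatocyte-like and biliary-like cells. The series title and design name fatty acid loading, as a model of steatosis, and its effect on drug-metabolizing enzymes as the subject. In the fatty acid group, 3 samples of differentiated cells received 0.5 mM of mixed fatty acids (1 part palmitate, 2 parts oleate) carried on albumin, for 72 h. The control group, also 3 samples, received the carrier albumin alone (0.02%) for the same time. Before this, the cells of both groups were kept in a medium with insulin and hydrocortisone, a glucocorticoid. The cells are 1 tumour-derived line, and the labels do not say whether the samples of a group came from separate cultures, so the p-values reflect only how far these samples differ, and that difference may be technical.

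The cascade has separate classical, lectin and alternative starts. In the classical pathway, C1q bound to antibody or to pentraxins activates the proteases C1r and C1s, which cleave C4 and C2. In the lectin pathway, mannose-binding lectin, ficolins and collectins bind sugars and the MASP proteases make the same cuts. In the alternative pathway, C3 that hydrolyses spontaneously binds factor B, which factor D cleaves, and properdin stabilizes the product. All routes cleave C3 and then C5, and C5b gathers C6, C7, C8 and C9 into the membrane attack complex. Regulators stop the cascade in plasma and on host membranes.

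Expression is given as FPKM (fragments scaled to gene length and to the library's assigned total), a scale on which levels of different genes can be compared. The 6 libraries held 6.33 to 15.94 M reads. Fold changes are differences of log2(FPKM + 0.5), fatty acid minus control, with their SE; the added 0.5 shrinks the differences of genes with low levels. A gene was tested if its mean over the 6 libraries was at least 0.5 FPKM, and is said to have risen or fallen if its limma p, adjusted by the Benjamini-Hochberg method over all 14661 tested genes, was below 0.05. The mitochondrial genome supplied 13.6 ± 1.37% of control reads and 10.3 ± 1.43% of fatty acid reads (SD, n = 3), and all FPKM are relative to a total that includes them. Of 12 hepatocyte markers, all tested, 9 fell and 2 rose. The summed FPKM of these markers ran from 16205 to 16874 in the controls and from 12256 to 12757 with fatty acid. Albumin (ALB), singled out after its values were seen, held most of that sum, with 11688 to 12320 FPKM in the controls and 6826 to 7439 FPKM with fatty acid. The other 11 summed to 4442 to 4554 FPKM in the controls and to 5318 to 5430 FPKM with fatty acid, the other direction, although 8 of them fell and 2 rose. Those 2 were SERPINA1 (mean 2212 FPKM in the controls, 2666 FPKM with fatty acid) and FGB (1185 and 1937 FPKM). APOB did not pass. The part of these shifts in the values below was not tested. For the 9 markers that fell, fewer hepatocyte-like cells and less of their RNA per cell cannot be told apart in these bulk samples. Of 8 biliary markers, 4 were tested and 0 passed in limma (1 at an unadjusted p under 0.05, 0 with voom). EPCAM was at 0 in all libraries, and the summed FPKM of the 8 ran from 362 to 435 in the controls and from 361 to 375 with fatty acid. Of 6 endothelial markers 1, KDR, was tested and it fell. PECAM1, too low to test, went the other way (0.288 to 0.387 FPKM in the controls, 0.538 to 0.542 FPKM with fatty acid), and CDH5 was at 0. Of 8 mesenchymal markers 7 were tested and 1, LUM, rose (4 at an unadjusted p under 0.05, 4 with voom). Those 4 at an unadjusted p under 0.05 were COL1A1 and COL3A1, lower, and DCN and LUM, higher. None of 6 lymphoid markers reached the minimum.

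Of the 37 complement genes, 29 were tested and 8 were too low. Fluid-phase regulators were 5 of the 8 genes that passed, but 3 of 9 after rescaling to TPM, 3 of 6 with no filter and 1 of 3 without fatty acid replicate 1 or 2. C8B and CD46 rose, while VTN, CFHR3, CFHR4, C6, C4BPB and CLU fell. The 6 that fell are 20.7% of the tested members, where 4.68% of all tested genes fell, and the 2 that rose are 6.90%, where 8.22% of all tested genes rose. Without fatty acid replicate 1 or 2 the members that fell numbered 2, and without any 1 fatty acid library those that rose numbered 1. Calls over all tested genes dropped as well. Without fatty acid replicate 1 or 2, 233 and 245 of all tested genes fell, against 686. Without fatty acid replicate 1, 2 or 3, 230, 239 and 518 of all tested genes rose, against 1205. The balance of calls over all tested genes depended on scaling, at 1205 higher and 686 lower as reported, 2615 and 408 after rescaling to TPM, 758 and 772 with quantile normalization, 710 and 835 with scaling by nuclear reads, and 779 and 818 by the median of ratios. The median log2 fold change of the 29 was -0.06, against 0.04 for all tested genes. No tested complement gene changed by 1 or more on the log2 scale: the 8 calls ranged up to 0.62 in size with a median of 0.44, and the median size of all 1891 calls was 0.40. The groups did not overlap for 19 of the 29, or 65.5%, where 37.1% of all tested genes had such groups. An exact permutation test of 3 against 3 libraries cannot give a two-sided p below 0.1, which those 19 genes reached. Together the 37 genes took 1.22 to 1.32% of the reads in the controls and 1.20 to 1.25% with fatty acid, so the summed share overlapped between the groups. Their summed FPKM did not overlap, at 2169 to 2373 in the controls and 2077 to 2123 with fatty acid. The sum was not compared on other scales, and rescaling to TPM moved the median log2 fold change of all tested genes from 0.04 to 0.18. Long genes weigh more in the share of reads than in summed FPKM.

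**Figure D1:**
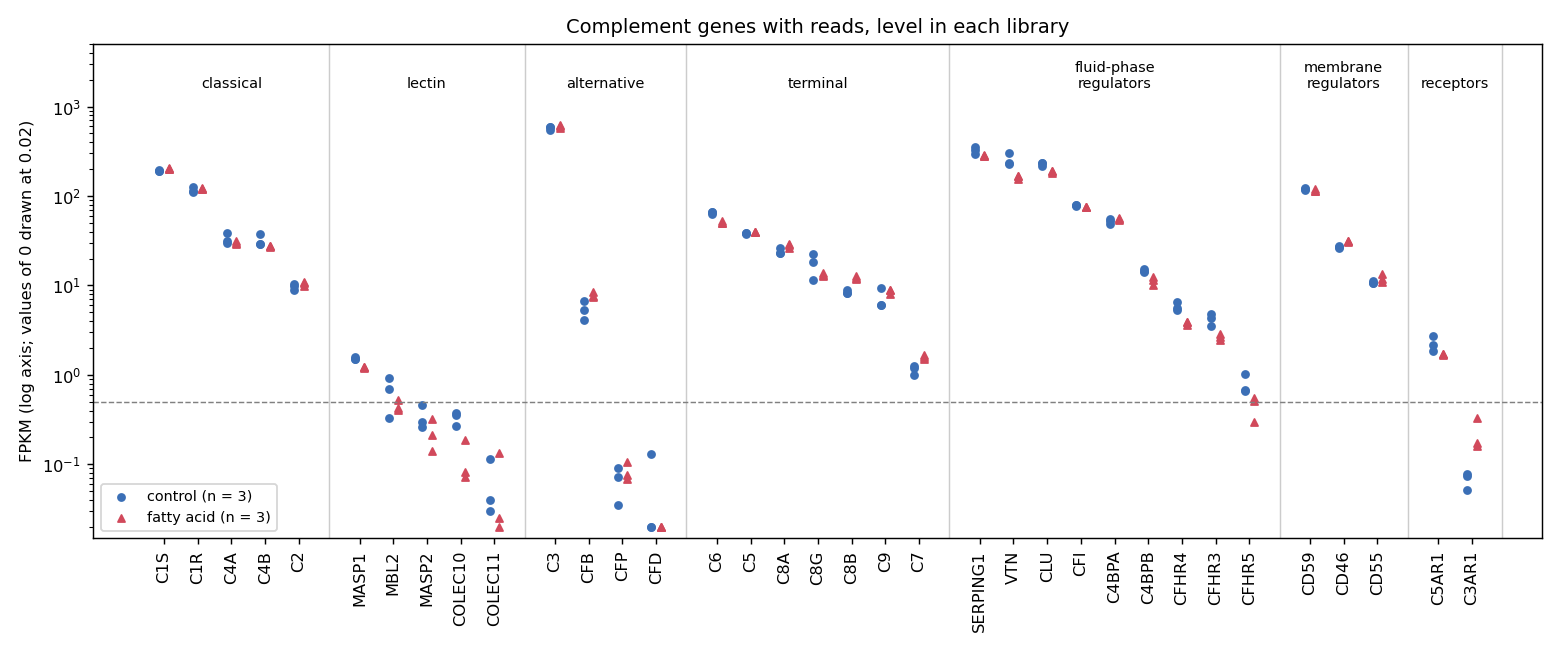
Level of each of the 35 complement genes with reads, in FPKM on a log axis, in the 3 control libraries (blue circles) and the 3 fatty acid libraries (red triangles), ordered by class; the dashed line is the minimum mean of 0.5 FPKM for testing. C3 is the highest at 547 to 629 FPKM, and most lectin pathway genes lie under the line.

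Levels differed widely between the members. C3, the protein on which all routes converge, was the most abundant, with a mean of 589.6 FPKM over the 6 libraries, rank 36 of all genes in the table. SERPING1, VTN, CLU, C1S, C1R and CD59 followed, with means from 118 to 303.6 FPKM. Another 13 genes had means from 10 to 100 FPKM, 9 from 0.5 to 10 FPKM, and 6 were above 0 but under 0.5 FPKM. CFHR2 and FCN3 had no read in any library. As the plot of levels by class shows, levels also differed within a class: among the terminal genes C6 averaged 57.6 FPKM and C7 1.37 FPKM, and among the plasma regulators SERPING1 averaged 303.6 FPKM and CFHR5 0.621 FPKM.

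In the classical pathway 0 of the 5 genes passed the test in limma, with 0 at an unadjusted p under 0.05 and 0 with voom on the recovered reads. C1R (chromosome 12, 7080209 to 7092607) and C1S (chromosome 12, 6988259 to 7071032) encode the paired proteases of the C1 complex and are neighbours. C1S stood at 196.7, 190.0 and 192.1 FPKM in control replicates 1, 2 and 3 and at 198.3, 205.6 and 198.1 FPKM in fatty acid replicates 1, 2 and 3. The fatty acid libraries were all above the controls, but by a log2 fold change of 0.06 ± 0.04 (95% interval -0.05 to 0.16, limma adjusted p = 0.43). C1R had 126, 112 and 110 FPKM in the controls and 119, 121 and 121 FPKM with fatty acid, groups that overlapped. LPCAT3, with 4190 reads against 84054 for C1S, lies opposite C1S over 30252 bases. C1RL, with 6193 reads against 44199 for C1R, overlaps C1R on the same strand over 3021 bases. The ratio of C1S to C1R within a library was 1.67 ± 0.0955 in the controls and 1.67 ± 0.0362 with fatty acid (SD, n = 3).

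The other classical genes lie in the major histocompatibility complex on chromosome 6. C2, the serine protease of the C3 convertase (31897785 to 31945672), had a log2 fold change of 0.11 ± 0.07 (95% interval -0.05 to 0.28). C4A (31982024 to 32002681) and C4B (32014762 to 32035418), which encode the isotypes of C4, are near-identical copies, so how reads were divided between them is uncertain. C4A had 38.3, 31.3 and 30.2 FPKM in the controls and 31.6, 29.8 and 29.0 FPKM with fatty acid. C4B had 37.3, 28.8 and 29.3 FPKM in the controls and 27.8, 26.9 and 27.7 FPKM with fatty acid. Control replicate 1 was the high library for both, and the other controls lay close to the fatty acid libraries. The log2 fold changes were -0.13 ± 0.09 for C4A and -0.20 ± 0.10 for C4B (limma adjusted p = 0.364 and 0.214), and that of C4A turned to 0.0011 after rescaling to TPM. The ratio of C4A to C4B was 1.05 ± 0.0343 in the controls and 1.10 ± 0.0439 with fatty acid, and the groups overlapped.

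Lectin pathway genes were low, and 0 of the 2 tested passed in limma (1 at an unadjusted p under 0.05, 1 with voom). MASP1 (chromosome 3, 187217285 to 187292022), a protease that cleaves MASP2 and C2, had 1.59, 1.49 and 1.52 FPKM in the controls and 1.21, 1.22 and 1.23 FPKM with fatty acid. The groups were apart and tight, with a log2 fold change of -0.24 ± 0.10 (95% interval -0.48 to -0.003, limma adjusted p = 0.16). It passed with voom on the recovered reads (log2 fold change -0.33, adjusted p = 0.0308). MBL2, the mannose-binding lectin (chromosome 10, 52765380 to 52771700), rested on 57 control and 63 fatty acid reads and had a 95% interval of -0.78 to 0.30, wide enough to hold a change in either direction. Its log2 fold change was -0.24, and -0.46 without control replicate 3 (adjusted p = 0.195). COLEC10, a liver collectin, lay under the minimum in every library: 0.267, 0.378 and 0.355 FPKM in the controls and 0.072, 0.083 and 0.188 FPKM with fatty acid. Its groups were apart, on 15 and 8 reads, a depth-adjusted ratio of 0.374 (exact 95% interval 0.137 to 0.940, counting error only). MASP2, the protease that cleaves C4 and C2, had 41 and 40 reads and a ratio of 0.684 (0.431 to 1.08). An antisense gene with 72 reads overlaps it over 870 bases, and whether the counting used strand is not given. COLEC11 had 4 and 7 reads, and FCN3 had none, which allows up to 0.021 FPKM over the 6 libraries.

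In the alternative pathway 0 of 2 tested genes passed in limma (1 at an unadjusted p under 0.05, 1 with voom). CFB came close to the threshold and C3 did not. C3 (chromosome 19, 6677704 to 6730562) had 586.6, 594.6 and 547.4 FPKM in the controls and 607.1, 629.0 and 572.7 FPKM with fatty acid. The groups overlapped, and the 95% interval of the log2 fold change was -0.07 to 0.20. C3 made up 24.7 to 26.9% of the summed FPKM of the 37 genes in the controls and 27.6 to 29.6% with fatty acid. That sum, the denominator, was itself lower with fatty acid (mean 2098 FPKM, against 2251 FPKM in the controls). CFB, factor B, the alternative pathway counterpart of C2 (chromosome 6, 31945650 to 31952084), had 6.63, 4.08 and 5.38 FPKM in the controls and 7.70, 7.48 and 8.54 FPKM with fatty acid. All fatty acid libraries were above all controls, with control replicate 2 lowest, and the mean was 47.4% higher. Its log2 fold change was 0.54 ± 0.15 (95% interval 0.19 to 0.89, limma adjusted p = 0.0565). The call was made with a minimum of 2 FPKM (0.034), after rescaling to TPM (0.0187), with voom on the recovered reads (0.0042) and without control replicate 1 (0.0171). CFB and C2 are adjacent and overlap by 23 bases, and an annotated read-through gene listed at 0 in all libraries overlaps the CFB span over 6399 bases; how reads in shared sequence were assigned is not given. The ratio of CFB to C2 rested on the same libraries: 0.646, 0.415 and 0.598 in the controls and 0.721, 0.750 and 0.786 with fatty acid, groups that did not overlap. Factor D (CFD), the protease that cleaves factor B and is made mainly by fat cells, had 1 read in the controls and none with fatty acid, which allows up to 0.0635 FPKM there. Properdin (CFP), made mainly by myeloid cells, had 9 and 14 reads, a depth-adjusted ratio of 1.09 (exact 95% interval 0.44 to 2.86).

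The bases before the start site of CFB are shown because the letters of cytokine-response elements stand in them. Promoter sequences are the 250 bases before the RefSeq start on GRCh38.p14, printed 5′ to 3′ on the gene's strand, and 24 of the 37 genes had an entry. Capitals mark matches, on either strand, to any of 7 motifs: STAT (TTCNNNGAA), ISRE, an interferon-response element (GAAANNGAA), C/EBP (TTNNGCAA), HNF1 (GTTAATNAT), HNF4 (CAAAGTCCA), NF-kB (GGGANTTCC) and PPAR (GGTCANAGG). No matches of different motifs overlapped in the windows printed. A match is a description of letters, not of a bound site. The CFB window holds an ISRE match 139 to 131 bases and a STAT match 92 to 84 bases before the start, and lies inside the longer CFB span of the deposited table.
CFB (chr6:31945845-31946094, plus strand): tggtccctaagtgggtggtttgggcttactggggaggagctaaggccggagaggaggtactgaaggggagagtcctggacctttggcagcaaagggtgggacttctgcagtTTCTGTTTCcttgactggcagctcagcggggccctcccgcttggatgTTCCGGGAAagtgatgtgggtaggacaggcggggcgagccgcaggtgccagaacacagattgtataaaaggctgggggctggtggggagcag
The STAT letters occurred in 6.78% of 27305 promoter windows and in 6 of the 24 member windows (CFB, C7, CD59, MASP2, MBL2 and VTN). ISRE letters occurred in 7.06% of all windows and in 2 member windows, those of CFB and C8A. NF-kB letters occurred in 1.6% of all windows and in 1 member window (COLEC11), and PPAR letters in 1.22% and in 1 (CD55). HNF4 letters, in 0.293% of all windows, were in none of the 24.

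Of the 7 terminal pathway genes C8B rose, C6 fell and 5 did not pass. C8B and C6 are each 14.3% of the 7, where 8.22% of all tested genes rose and 4.68% fell. C6, which binds C5b to start the membrane attack complex (chromosome 5, 41142234 to 41261438), stood at 65.4, 63.5 and 65.8 FPKM in the controls and at 49.4, 49.5 and 52.1 FPKM with fatty acid. Both groups were tight and clearly apart, and the mean fell by 22.4%. The log2 fold change was -0.36 ± 0.05 (limma adjusted p = 0.00451), and the call held under all 17 alternatives, with a smaller fold change of -0.23 after rescaling to TPM (adjusted p = 0.0419). C5 (chromosome 9, 120952335 to 121050276), its partner in the first step, had 37.6, 38.4 and 38.6 FPKM in the controls and 39.9, 40.0 and 39.5 FPKM with fatty acid, apart by little: 0.06 ± 0.04 (95% interval -0.05 to 0.16). The ratio of C6 to C5 went from 1.70 ± 0.0438 to 1.27 ± 0.0456, a value that does not depend on how the libraries are scaled.

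C7, which lets the complex enter the membrane, lies next to C6 (chromosome 5, 40909252 to 40982939) and had a fold change of the other sign. It had 1.26, 0.998 and 1.18 FPKM in the controls and 1.67, 1.60 and 1.53 FPKM with fatty acid, groups that were apart. The log2 fold change was 0.35 ± 0.12 (95% interval 0.08 to 0.62, limma adjusted p = 0.0865), with a call only after rescaling to TPM (0.55, adjusted p = 0.0416). Levels of C7 were far lower than those of C6: the ratio of C6 to C7 was 57.1 ± 6.01 in the controls and 31.6 ± 2.35 with fatty acid. C9, which polymerizes into the pore (chromosome 5, 39284262 to 39424868), had 5.97, 6.10 and 9.35 FPKM in the controls and 8.02, 8.99 and 8.99 FPKM with fatty acid. Control replicate 3 was the highest of all 6, and without it C9 passed (log2 fold change 0.49, adjusted p = 0.0233), against 0.29 ± 0.16 with it (0.258). Without control replicate 1 the log2 fold change of C9 was 0.18 (adjusted p = 0.495), and after rescaling to TPM it was 0.44 (0.0677). The span of C9 in the table overlaps DAB2 on the same strand over 53194 bases. DAB2 had 12926 reads, against 1600 for C9, and how reads in shared sequence were assigned is not given.

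C8 is made of 3 chains, and of their genes 1 passed the test. C8B, the beta chain (chromosome 1, 56929210 to 56966140), had 8.95, 8.16 and 8.15 FPKM in the controls and 11.9, 12.1 and 12.9 FPKM with fatty acid. The groups were apart, and the mean was 45.9% higher. The log2 fold change of 0.52 ± 0.07 (limma adjusted p = 0.00396) was, as reported, the largest rise of the 29 tested genes to pass. C8B passed under all 17 alternatives. In those where CFB passed too, CFB had the larger rise, such as 0.70 against 0.67 after rescaling to TPM. C8A, the alpha chain and its neighbour (chromosome 1, 56854806 to 56918221), had 23.2, 22.8 and 26.0 FPKM in the controls and 26.5, 29.0 and 28.0 FPKM with fatty acid. These groups were apart as well, but the log2 fold change of 0.21 ± 0.07 did not pass (limma adjusted p = 0.0794) except after rescaling to TPM (0.35, adjusted p = 0.0195). C8G, the lipocalin-like gamma chain (chromosome 9, 136945246 to 136946974), had 22.4, 11.6 and 18.1 FPKM in the controls and 13.1, 12.6 and 13.6 FPKM with fatty acid. Its control libraries were widely spread, with replicate 2 below all fatty acid libraries. Without control replicate 2 it passed as lower (log2 fold change -0.60, adjusted p = 0.0182), against -0.34 ± 0.21 with it (0.298). Without control replicate 1 the log2 fold change of C8G was -0.14 (adjusted p = 0.618), and after rescaling to TPM it was -0.22 (0.473). The ratio of C8A to C8B was 2.59, 2.79 and 3.19 in the controls and 2.24, 2.39 and 2.18 with fatty acid, groups that did not overlap.

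The windows before C6 and C8B are shown as those of the terminal genes that passed, and C8A as the neighbour of C8B that did not. C6 holds a C/EBP match 159 to 152 bases before the start, C8A an ISRE match 60 to 52 bases before it, and C8B no match to any motif searched.
C6 (chr5:41261470-41261719, minus strand): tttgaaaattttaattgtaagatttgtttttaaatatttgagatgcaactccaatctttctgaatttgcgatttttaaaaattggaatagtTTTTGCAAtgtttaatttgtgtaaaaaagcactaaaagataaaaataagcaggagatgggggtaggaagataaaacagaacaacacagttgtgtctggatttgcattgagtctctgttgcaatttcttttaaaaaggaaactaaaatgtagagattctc
C8A (chr1:56854547-56854796, plus strand): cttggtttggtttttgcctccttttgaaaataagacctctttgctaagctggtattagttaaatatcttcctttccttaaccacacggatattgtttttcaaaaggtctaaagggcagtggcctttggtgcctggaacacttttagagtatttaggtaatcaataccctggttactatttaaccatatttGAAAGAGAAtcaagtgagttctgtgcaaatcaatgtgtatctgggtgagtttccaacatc
C8B (chr1:56966016-56966265, minus strand): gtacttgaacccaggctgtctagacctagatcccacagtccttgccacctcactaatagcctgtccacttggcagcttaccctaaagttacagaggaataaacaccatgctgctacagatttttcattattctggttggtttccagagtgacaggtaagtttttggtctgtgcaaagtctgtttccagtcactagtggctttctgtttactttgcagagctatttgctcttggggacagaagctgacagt
C/EBP letters occurred in 9.13% of all promoter windows and in 4 of the 24 member windows (C1R, MBL2, C6 and VTN). The C8A and C8B windows were identical at 116 of 261 aligned positions, or 44.4%.

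**Figure D2:**
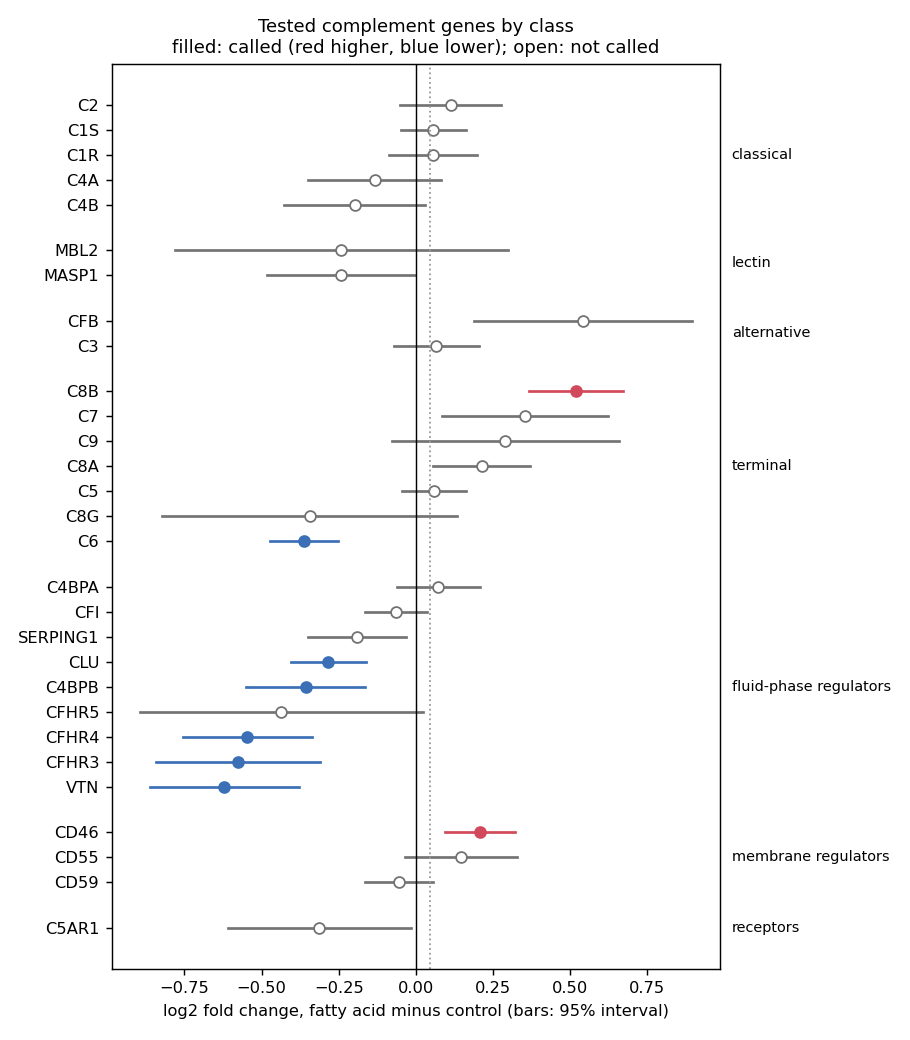
Log2 fold change (fatty acid minus control) of the 29 tested complement genes with 95% intervals, by class; filled points passed the test (red higher, blue lower), and the dotted line is the median of all tested genes, 0.04. Of the 9 tested fluid-phase regulators 8 lie left of 0 and 5 passed as lower, where 4.68% of all tested genes did.

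Among the 10 fluid-phase regulators 5 of 9 tested genes fell, none rose, and 4 did not pass, with a median log2 fold change of -0.36. Those 5 are 55.6% of the 9, where 4.68% of all tested genes fell and 8.22% rose. Without fatty acid replicate 1 or 2, 1 of the regulators passed. Calls over all tested genes dropped there too, with 233 and 245 lower, against 686. The set includes the C1 inhibitor, C4b-binding protein, factor I, proteins related to factor H, and the inhibitors of pore formation vitronectin and clusterin. VTN, vitronectin, which binds the nascent attack complex and is also a matrix adhesion protein (chromosome 17, 28367276 to 28373091), stood at 299.5, 228.4 and 231.8 FPKM in the controls and at 165.6, 155.9 and 168.4 FPKM with fatty acid. All controls were above all fatty acid libraries, with control replicate 1 the highest. The mean fell by 35.5%, and the log2 fold change of -0.62 ± 0.10 was the largest of the 29 in size (limma adjusted p = 0.0117). The call was lost without fatty acid replicate 1 or 2 (adjusted p = 0.056 and 0.0587), with log2 fold changes of -0.63 and -0.59. SARM1 lies opposite VTN over 5816 bases and had 510 reads, against 31989 for VTN. CLU, clusterin, a chaperone-like protein that also keeps the complex out of the membrane (chromosome 8, 27596917 to 27615031), had 235.3, 215.3 and 233.0 FPKM in the controls and 182.5, 189.3 and 189.2 FPKM with fatty acid. The groups were apart. The mean fell by 17.9%, a log2 fold change of -0.28 ± 0.05 (limma adjusted p = 0.0164). The call on CLU was lost on the TPM scale (-0.15, adjusted p = 0.172), without the intensity trend (0.056) and without fatty acid replicate 1, 2 or 3 (0.0902, 0.0695 and 0.0512).

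Proteins related to factor H share its C3b-binding modules, and several compete with it on surfaces. Their genes lie side by side on chromosome 1, and being similar in sequence they may share reads. CFHR3 (196774795 to 196795406) had 4.79, 4.35 and 3.56 FPKM in the controls and 2.47, 2.62 and 2.89 FPKM with fatty acid. CFHR4 (196850241 to 196918972) had 5.29, 5.64 and 6.51 FPKM in the controls and 3.94, 3.90 and 3.60 FPKM with fatty acid. For both genes every control library was above every fatty acid library. The log2 fold changes were -0.58 ± 0.11 for CFHR3 and -0.55 ± 0.09 for CFHR4 (limma adjusted p = 0.0205 and 0.011). The call on CFHR4 held under all 17 alternatives, and that on CFHR3 was lost with no expression filter (adjusted p = 0.0588) and on leaving out fatty acid replicate 1 (0.0892) or 2 (0.0821). CFHR5 (196977556 to 197009674) was lower in level, with 1.03, 0.674 and 0.662 FPKM in the controls and 0.298, 0.545 and 0.513 FPKM with fatty acid. Its groups were apart on 60 and 52 reads, and the log2 fold change of -0.44 ± 0.20 did not pass (limma adjusted p = 0.184, 95% interval -0.90 to 0.02). It was -0.70 with a pseudocount of 0.1 (adjusted p = 0.199) and -0.72 with voom (0.127). CFHR2 had no read, which allows up to 0.042 FPKM over the 6 libraries. A longer annotated gene, also at 0, overlaps CFHR4 over 68732 bases and CFHR2 over 15439 bases, and how reads in shared sequence were assigned is not given. The ratio of CFHR4 to CFHR3 overlapped between groups, at 1.41 ± 0.374 and 1.44 ± 0.18.

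C4b-binding protein, which removes C4b and serves factor I as cofactor, is built from alpha chains (C4BPA) and a beta chain (C4BPB) that carries protein S. C4BPB (chromosome 1, 207088842 to 207099993) had 14.4, 14.0 and 15.4 FPKM in the controls and 11.4, 10.2 and 12.5 FPKM with fatty acid. The groups were apart, the mean fell by 22.5%, and the log2 fold change was -0.36 ± 0.08 (limma adjusted p = 0.033). Its call was lost with no filter (0.0738), after rescaling to TPM (-0.23, 0.0764), without the trend (0.066), and when any 1 of 4 libraries was left out, control replicate 1 (0.0523), control replicate 3 (0.09), fatty acid replicate 1 (0.115) and fatty acid replicate 2 (0.111). C4BPA, the neighbouring gene (chromosome 1, 207104262 to 207144972), had 55.6, 49.2 and 52.5 FPKM in the controls and 54.8, 54.1 and 56.4 FPKM with fatty acid. These groups overlapped, and the log2 fold change was 0.07 ± 0.06 (95% interval -0.06 to 0.21). The ratio of C4BPA to C4BPB therefore separated the groups: 3.86, 3.50 and 3.40 in the controls against 4.82, 5.32 and 4.53 with fatty acid.

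The windows before C4BPA, C4BPB and VTN are shown for the chain genes of C4b-binding protein, of which 1 passed, and for the regulator with the largest fall. C4BPA holds an HNF1 match 50 to 42 bases before the start, and C4BPB no match to any motif searched. VTN holds C/EBP matches 225 to 218 and 47 to 40 bases and a STAT match 109 to 101 bases before the start, and its window lies inside the longer VTN span of the deposited table.
C4BPA (chr1:207103983-207104232, plus strand): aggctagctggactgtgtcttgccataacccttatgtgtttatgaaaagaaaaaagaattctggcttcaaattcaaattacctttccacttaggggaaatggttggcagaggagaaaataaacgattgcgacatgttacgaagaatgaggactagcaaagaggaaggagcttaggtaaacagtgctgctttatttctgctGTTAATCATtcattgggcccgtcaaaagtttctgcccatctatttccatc
C4BPB (chr1:207088610-207088859, plus strand): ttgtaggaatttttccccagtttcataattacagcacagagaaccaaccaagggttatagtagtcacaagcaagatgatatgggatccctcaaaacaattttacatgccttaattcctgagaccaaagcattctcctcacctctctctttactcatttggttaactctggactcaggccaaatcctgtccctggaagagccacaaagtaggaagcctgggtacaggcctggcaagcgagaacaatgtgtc
VTN (chr17:28370308-28370557, minus strand): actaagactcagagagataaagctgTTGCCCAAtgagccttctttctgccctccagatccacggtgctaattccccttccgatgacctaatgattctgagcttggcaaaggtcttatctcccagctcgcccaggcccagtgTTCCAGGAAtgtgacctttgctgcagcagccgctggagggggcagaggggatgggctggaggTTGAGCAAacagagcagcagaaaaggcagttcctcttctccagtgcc
HNF1 letters occurred in 0.678% of all promoter windows and in 1 of the 24 member windows, that of C4BPA. The C4BPA and C4BPB windows were identical at 117 of 270 aligned positions, or 43.3%.

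The remaining plasma regulators differed less. SERPING1, the C1 inhibitor, which blocks C1r, C1s and the MASPs (chromosome 11, 57597387 to 57614853), had 351.7, 325.6 and 294.7 FPKM in the controls and 282.7, 285.1 and 281.6 FPKM with fatty acid. The controls were spread and the fatty acid libraries tight, without overlap. Its log2 fold change of -0.19 ± 0.07 did not pass (limma adjusted p = 0.109), but it did with quantile normalization (0.0274), with scaling by the median of ratios (0.0474) or by nuclear reads (0.0437), with voom (0.0326) and without control replicate 3 (0.0425). After rescaling to TPM the log2 fold change shrank to -0.05 (adjusted p = 0.709). CFI, factor I, the protease that cuts C3b and C4b (chromosome 4, 109740694 to 109802179), had 80.2, 78.3 and 77.9 FPKM in the controls and 75.1, 75.1 and 75.7 FPKM with fatty acid. That is a log2 fold change of -0.07 ± 0.04 (95% interval -0.17 to 0.04) with groups apart, and its sign turned after rescaling to TPM (0.07).

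**Figure D3:**
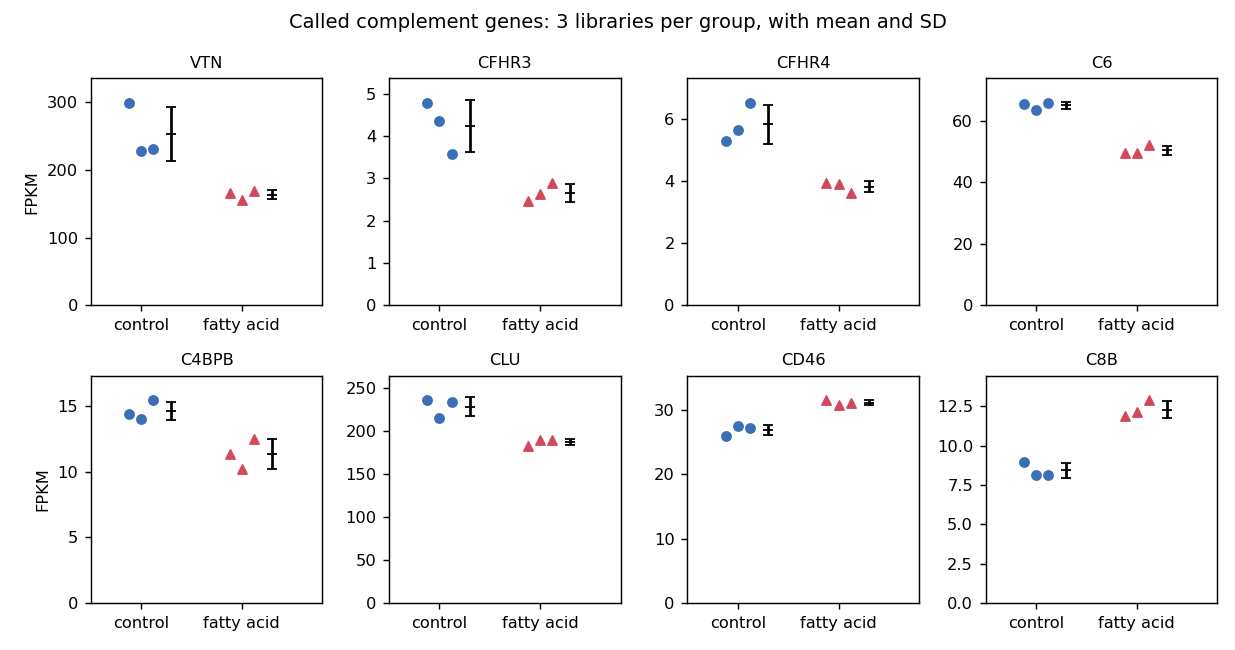
FPKM of the 8 complement genes that passed the test in the 3 control libraries (blue circles) and the 3 fatty acid libraries (red triangles), each axis from 0, with the mean and SD of each group beside the points. No gene has overlapping groups, and the fatty acid values of VTN, 155.9 to 168.4 FPKM, lie closer together than its control values, 228.4 to 299.5 FPKM.

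Membrane regulators protect the cell's own surface. CD46, the cofactor for cleavage of C3b and C4b by factor I (chromosome 1, 207752057 to 207795513), rose from 26.0, 27.5 and 27.2 FPKM in the controls to 31.5, 30.8 and 31.1 FPKM with fatty acid. The groups were apart and tight, with a mean 15.8% higher, and the log2 fold change was 0.21 ± 0.05 (limma adjusted p = 0.0336). This call depended on scaling and libraries: it was lost with quantile normalization (0.112), with scaling by nuclear reads (0.0959) or by the median of ratios (0.0814), with the replicate number as a block (0.0653) and with no trend (0.0851). It was also lost when control replicate 3 (0.0687) or any 1 fatty acid library was left out (0.14, 0.116 and 0.0919), and after rescaling to TPM the log2 fold change was 0.35 (0.0141). CD55, which dissociates convertases (chromosome 1, 207321508 to 207386804), had 10.6, 11.3 and 10.5 FPKM in the controls and 11.0, 13.3 and 11.9 FPKM with fatty acid, groups that overlapped. Its log2 fold change was 0.15 ± 0.08 (95% interval -0.04 to 0.33). CD59, which blocks the addition of C9 and was the most abundant of the 3 (chromosome 11, 33698261 to 33736445), had 113.7 to 118.5 FPKM with fatty acid and 116.9 to 124.3 FPKM in the controls. Those groups overlapped, and the sign of the log2 fold change of -0.06 ± 0.05 turned after rescaling to TPM (0.08).

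Receptors for the cleaved fragments C3a and C5a are known mainly from myeloid cells. C5AR1 (chromosome 19, 47290023 to 47322066) had 2.72, 1.87 and 2.15 FPKM in the controls and 1.66, 1.72 and 1.70 FPKM with fatty acid. All fatty acid libraries were below all controls, and the log2 fold change of -0.31 ± 0.13 did not pass (95% interval -0.61 to -0.02, limma adjusted p = 0.147). Without control replicate 1 it was -0.19 (adjusted p = 0.284). C3AR1 was too low to test, with 0.052, 0.074 and 0.079 FPKM in the controls and 0.334, 0.162 and 0.175 FPKM with fatty acid. It rested on 4 and 17 reads, a depth-adjusted ratio of 2.98 whose exact 95% interval of 0.972 to 12.2 includes no change. Beside these, 3 of 11 myeloid markers were tested and 0 passed in limma (0 at an unadjusted p under 0.05, 0 with voom), with a summed level of 11.9 to 16.6 FPKM in the controls and 15.98 to 16.8 FPKM with fatty acid. CD14, which hepatocytes also express, held most of that sum. The pan-leukocyte gene PTPRC had 0 reads in the controls and 5 with fatty acid, and TYROBP was at 0 in all libraries. The part of such cells in the receptor values was not tested.

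**Figure D4:**
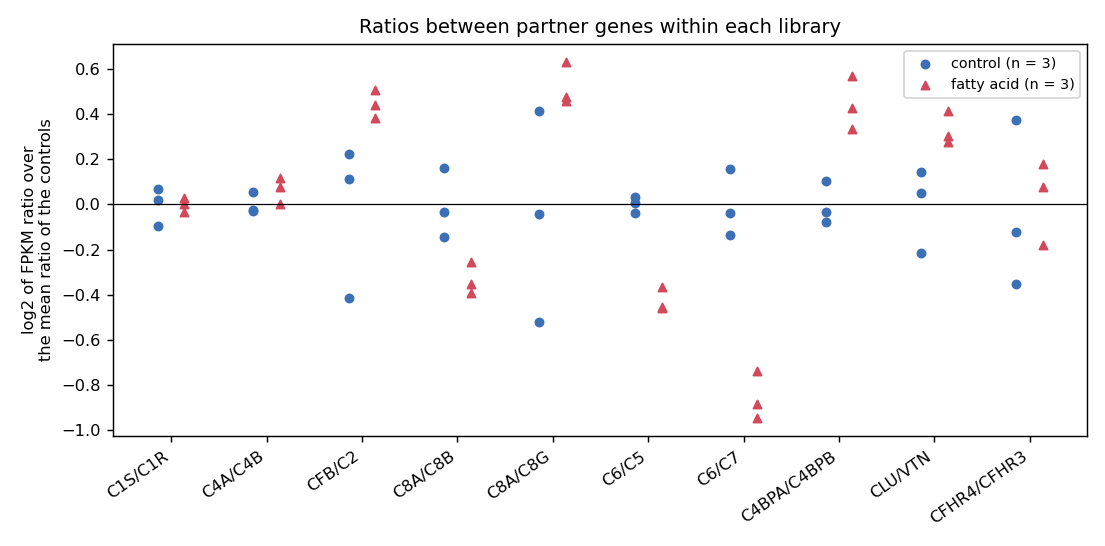
Ratio of FPKM between partner complement genes in each library, as log2 over the mean ratio of the controls, for 3 control libraries (blue circles) and 3 fatty acid libraries (red triangles). The ratios C6/C5, C6/C7 and C8A/C8B lie lower and C4BPA/C4BPB higher in every fatty acid library, while C1S/C1R and CFHR4/CFHR3 overlap.

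Ratios within a library do not change with its scaling, and 10 were compared. The groups did not overlap for 7 of them: C6 to C5, C6 to C7, C8A to C8B, C8A to C8G, CFB to C2, C4BPA to C4BPB and CLU to VTN. No share over other gene pairs was computed, and 37.1% of single tested genes had such groups. C6 and C8A recur among these pairs, and C6, C8B, C4BPB, CLU and VTN passed on their own. The 7 ratios are therefore not separate from one another or from those calls. The ratio of CLU to VTN, both inhibitors of the attack complex, went from 0.911 ± 0.113 to 1.15 ± 0.0596. The C8A to C8G ratio went from 1.48 ± 0.471 to 2.13 ± 0.144, with the spread of C8G in the controls behind its SD. Each of the 7 had an exact two-sided permutation p of 0.1, the smallest that 3 against 3 libraries allow, and 0.143 after Benjamini-Hochberg adjustment over the 10, so none could pass.

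Another 20 genes of the complement system were examined, of which 9 were tested, 1 rose and 1 fell. Each is 11.1% of those tested, where 8.22% of all tested genes rose and 4.68% fell. CPN1, the catalytic chain of carboxypeptidase N, which inactivates C3a and C5a, rose from 2.66, 2.76 and 2.47 FPKM to 5.26, 5.24 and 4.79 FPKM, with a log2 fold change of 0.84 ± 0.08 (limma adjusted p = 0.000995). CPB2, a plasma carboxypeptidase that also trims C5a and slows fibrinolysis, fell from 150.1, 154.6 and 165.8 FPKM to 129.7, 127.5 and 131.6 FPKM, with a log2 fold change of -0.27 ± 0.05 (limma adjusted p = 0.0186). The call on CPB2 was lost after rescaling to TPM (-0.14, adjusted p = 0.158), without the trend (0.0604) and without any 1 fatty acid replicate (0.0893, 0.0869 and 0.0545). C1QA, C1QB, FCN1, CR1, VSIG4 and CD93, genes of macrophages and other blood or endothelial cells, were at 0 in all libraries, and C1QC had 1 read in all.

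A list of 16 transcription factors and cytokine signalling genes was drawn up for their links to complement genes. Of these, 5 rose, 1 fell and 10 did not pass in limma (11 at an unadjusted p under 0.05, 10 with voom). Those that rose are 31.25% of the 16 and the 1 that fell is 6.25%, where 8.22% and 4.68% of all tested genes did. Among those that rose were the interferon pathway genes IFNGR1 and IRF1, with log2 fold changes of 0.58 ± 0.04 and 0.56 ± 0.08 (limma adjusted p = 0.000374 and 0.00739). IL1R1, the interleukin-1 receptor, rose by 0.40 ± 0.06 (0.00754), and SOCS3, a feedback inhibitor of interleukin-6 signalling, by 0.76 ± 0.16 (0.0241). HNF4A, a transcription factor of hepatocyte genes, fell with a log2 fold change of -0.49 ± 0.08 (0.00923). The call on HNF4A was lost without fatty acid replicate 1 (0.0552) or 2 (0.052). That on SOCS3 was lost without fatty acid replicate 1 (0.0987) or 3 (0.0683), with no filter (0.0713) and without the trend (0.0527). The part of any of these genes in the complement values was not tested.

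**Figure D5:**
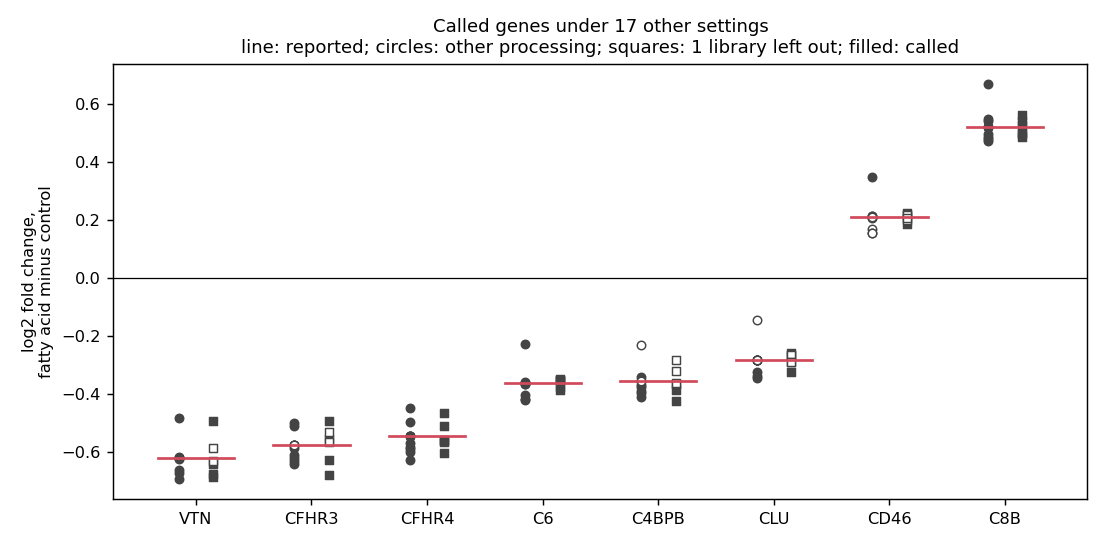
Log2 fold change of the 8 complement genes that passed the test as reported (red line), under 11 other ways of processing (circles) and with 1 library left out (squares); filled points passed the test. All 8 keep their sign under all 17 alternatives, and C6, C8B and CFHR4 pass in all of them.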

How the data were processed

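For 6 libraries the authors deposited FPKM, fragments scaled to gene length and to the assigned total of the library. Per the submitters' processing notes, STAR 2.5.2, featureCounts, Subread 1.5.1 and the build GRCh38 were used; the sources used here do not give the strand setting. Gene lengths and coordinates are in the deposited table, per the file headers. The libraries were made from poly-A RNA with a stranded kit, per the labels' protocols. FPKM times length came out as whole reads for at least 99.98% of the values of each library (tolerance 0.02 reads beyond rounding), so depth is known.

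Groups and replicate numbers came from the sample titles. The test was limma 3.58.1 (R 4.3.3, intensity trend) on log2(FPKM + 0.5), for genes averaging 0.5 FPKM or more, adjusted over all 14661 tested genes. On simulated data of 14696 genes, with a dispersion of 0.00228, 59.7%, 76.1% and 89.4% of genes changed 1.5-fold, 2-fold and 4-fold were recovered. There, 6.83% of the 161 calls were false, and 5 genes were called with none changed. Recovery of genes changed less than 1.5-fold, as most of the complement calls were, was not tested. Whether these rates hold for the 6 libraries was not tested either. Replicates of a group differed by more than sampling noise. Read ratios have exact conditional binomial intervals at 95%, and a count of 0 is limited by 3 reads. The members and lists were chosen with earlier results of these data known. All 37 members are named; of the other lists, the genes that passed, up to 6 each, except 1 that is not reported here. Python 3.11.15, numpy 2.4.6, pandas 2.3.3, scipy 1.17.1 and matplotlib 3.10.9 were used.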

Additional observations from a re-analysis of the deposited data

How the results depend on the processing

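All 8 complement calls kept their sign under the 17 alternatives, all of them planned; C6, C8B and CFHR4 passed in each. Of all tested genes, 1891 were called, against 977 with no filter, 3023 after rescaling to TPM, 1101 without the intensity trend, 2999 with voom on recovered reads, and 463 to 1629 with 1 library left out. Rescaling to TPM moved the median log2 fold change of all tested genes from 0.04 to 0.18. Members that rose numbered 2 as reported, 1 with quantile normalization, with scaling by nuclear reads or by the median of ratios, with no trend or with the replicate block, 5 with TPM, 3 with a minimum of 2 FPKM or voom, and 1 to 3 with 1 library left out. Members that fell numbered 6 as reported, 4 with no filter, TPM or no trend, 8 with voom, and 2 to 7 with 1 library left out (2 without fatty acid replicate 1 or 2). The cause of these shifts was not tested. By class, the alternative pathway had 1 riser with a minimum of 2 FPKM, TPM or voom (0 to 1 with 1 library left out), the lectin pathway 1 gene lower with voom, and the terminal pathway 3 risers with TPM (1 to 2 with 1 library left out, 1 to 2 for its genes that fell). Fluid-phase regulators that fell numbered 3 with no filter, TPM or no trend, and 1 to 5 with 1 library left out. Membrane regulators that rose numbered 0 with quantile normalization, scaling by nuclear reads, scaling by the median of ratios, no trend or the replicate block, and 0 to 1 with 1 library left out. Reversed signs, none of them in a called gene, were C1R (-0.00346), C1S (-0.0182) and C5 (-0.01) with quantile normalization and C4A (0.00106), CFI (0.0711) and CD59 (0.0807) with TPM. The block by replicate number called 1474 genes and changed 1 call on the members, that of CD46; same-numbered libraries correlated at 0.0122, 0.0836 and 0.0224 in their deviations from the group means, so the numbers were not taken as pairs. Depth limits the 8 untested members, which rest on 0 to 81 reads over the 6 libraries.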
